A study of Mus musculus with 6 samples.

Results

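The genes analysed here encode the constant regions of 4 antibody heavy chains: Ighm (the μ chain of IgM), Ighd (the δ chain of IgD), Igha (the α chain of IgA) and Ighe (the ε chain of IgE). They were taken by gene name from a table of scaled fragment counts per gene locus, and each name had 1 locus, so that the set holds 4 of the 44794 loci with a gene name. The samples were spleens of treated mice, with 3 Sle1b.IFNγR-/- libraries and 3 B6.Sle1b libraries. B6.Sle1b is a C57BL/6 line with a lupus susceptibility interval, and Sle1b.IFNγR-/- carries the same interval and lacks a working receptor for interferon-γ, the main cytokine of T helper type 1 responses. Both groups carried Sle1b. Both also received imiquimod, which activates TLR7, a receptor for RNA, in 3 doses a week over 4 weeks, so that neither group is untreated or free of the interval. The labels name neither the receptor subunit that was disrupted nor the age of the mice, and they do not say whether samples were pooled. The study asked how interferon-γ acts on the development of autoreactive B cells into antibody-forming and germinal centre cells.

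A B cell first makes IgM, and the mature naive cell makes IgM and IgD together by alternative splicing of 1 long transcript. Class switching then joins the same variable region to a constant region further along the chromosome, which gives IgG, IgE or IgA. Each heavy-chain gene can be expressed as a membrane form, which is the B cell receptor, or as a secreted form, which plasma cells make in large amounts. In mice, interleukin-4 is known to direct switching to IgE and transforming growth factor-β to direct switching to IgA, while interferon-γ directs switching to IgG2a or IgG2c.

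All 4 genes lie on the minus strand of chromosome 12 of GRCm38, in the annotation of GENCODE release M21. Ighm spans 113418558 to 113422730 and Ighd 113406604 to 113416324, directly after it in the direction of transcription. Ighe spans 113269260 to 113273248 and Igha, the last gene of the locus, 113254830 to 113260236. The 4 gamma genes lie between Ighd and Ighe. A locus value adds up the secreted and the membrane form, because both share the exons of the constant domains. The ends of the coding regions show what the locus value does not separate. The last 60 coding bases and the stop codon of each secreted form, in GENCODE M21 transcripts, are given first. In Ighm and Igha the capitals mark the last 2 codons, TGC TAT and TGC TAC. They encode a cysteine and a tyrosine, and this cysteine of the tailpiece links IgM and IgA chains into polymers with the joining chain. Secreted Ighd and Ighe end without that pair.
Ighm secreted, chr12:113420867-113420929: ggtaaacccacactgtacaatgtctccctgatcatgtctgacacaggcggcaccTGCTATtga
Igha secreted, chr12:113258768-113258830: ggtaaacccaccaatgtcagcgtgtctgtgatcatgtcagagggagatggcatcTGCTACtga
Ighd secreted, chr12:113409578-113409640: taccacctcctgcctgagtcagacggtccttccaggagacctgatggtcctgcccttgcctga
Ighe secreted, chr12:113271273-113271335: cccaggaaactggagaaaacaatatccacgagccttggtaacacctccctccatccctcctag

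The membrane forms end differently. Those of Ighm and Ighd close with the short lysine-valine-lysine tail inside the cell, marked in capitals. Those of Igha and Ighe have longer tails and lack that ending. The ends of Ighm and Ighd are each joined over a splice, so their coordinates include an intron.
Ighm membrane, chr12:113418826-113419006: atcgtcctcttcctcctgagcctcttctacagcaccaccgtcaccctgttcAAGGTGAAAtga
Ighd membrane, chr12:113407535-113407817: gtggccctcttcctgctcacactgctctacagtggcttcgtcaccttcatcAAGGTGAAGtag
Igha membrane, chr12:113256201-113256263: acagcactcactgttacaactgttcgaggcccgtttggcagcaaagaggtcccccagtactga
Ighe membrane, chr12:113269260-113269322: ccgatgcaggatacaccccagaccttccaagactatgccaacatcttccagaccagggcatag

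The libraries held between 4394299 and 5960908 fragments in Sle1b.IFNγR-/- and between 5531776 and 6349827 in B6.Sle1b. Loci with a gene name held between 19.20% and 19.77% of the fragments in Sle1b.IFNγR-/-. In B6.Sle1b they held 26.96% in replicate 1, 17.52% in replicate 2 and 19.95% in replicate 3. The rest lay on loci without a gene name. The part of this share in the results was not tested. The libraries also differed in the level of ribosomal protein genes in a way the groups do not explain. The median of 29 ribosomal protein genes, each relative to its own geometric mean over the 6 libraries, lay between 0.867 and 0.897 in Sle1b.IFNγR-/-. In B6.Sle1b it was 2.48 in replicate 1, 0.771 in replicate 2 and 1.08 in replicate 3. Level differences and list medians are therefore given with and without B6.Sle1b replicate 1, beside ratios within a library, which scaling between libraries cannot change. The defining B cell genes Cd79a, Cd79b and Ms4a1 were detected in all 6 libraries. In whole spleen, fewer cells of a type and less RNA per cell cannot be told apart.

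Ighm was the most abundant of the 4 genes, and its level was lower in Sle1b.IFNγR-/- spleen than in B6.Sle1b spleen on average, without passing the test. Its scaled counts were 1120, 1004 and 1254 in Sle1b.IFNγR-/- replicates 1 to 3, against 5850, 1184 and 2255 in B6.Sle1b replicates 1 to 3. The 3 Sle1b.IFNγR-/- libraries lay close together, B6.Sle1b replicate 1 was far above every other library, and B6.Sle1b replicate 2 lay inside the range of the Sle1b.IFNγR-/- libraries. The means were 1126 ± 125 and 3096 ± 2444 (SD, n = 3 each). On the log2(value + 1) scale the difference was -1.16 (SE 0.43), with a limma unadjusted p of 0.0196 and a Benjamini-Hochberg adjusted p of 0.99976 over 19227 named loci. No locus passed an adjusted p of 0.05 in this fit (0% of those tested), and 3.1% of them (596) had an unadjusted p under 0.05. Without B6.Sle1b replicate 1 the Ighm difference was -0.54, and without replicate 2 it was -1.69 (limma adjusted p = 0.993 and 0.0886).

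**Figure D1:**
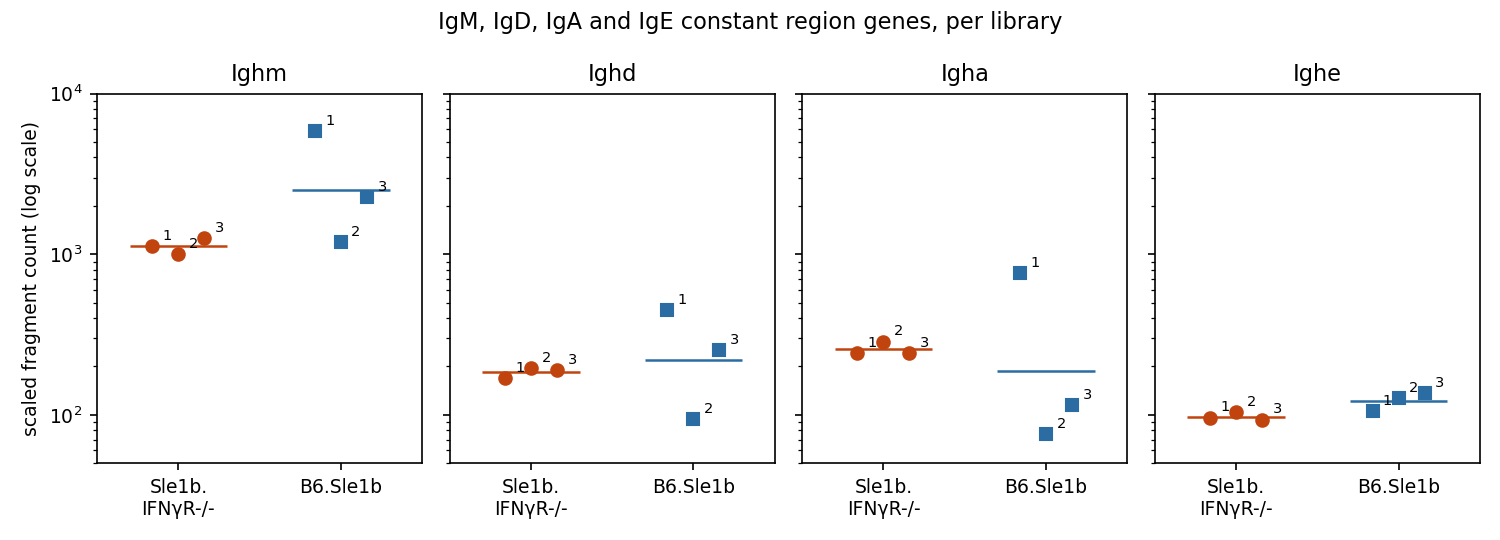
Scaled fragment counts (log axis) of Ighm, Ighd, Igha and Ighe in each library, with Sle1b.IFNγR-/- at the left and B6.Sle1b at the right of each panel; digits are replicate numbers and lines are geometric means of 3 libraries. The Sle1b.IFNγR-/- libraries lie within 1.25-fold of each other for every gene, while B6.Sle1b replicate 1 is the highest of the 6 libraries for Ighm, Ighd and Igha but not for Ighe.

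Ighd, whose product marks mature naive B cells, differed less between the groups. Its scaled counts were 169, 196 and 190 in Sle1b.IFNγR-/- and 448, 93.7 and 254 in B6.Sle1b. The B6.Sle1b libraries lay on both sides of the Sle1b.IFNγR-/- range. The log2 difference was -0.255 (SE 0.44, limma adjusted p = 0.99976), and it was 0.26 without B6.Sle1b replicate 1 and -0.87 without B6.Sle1b replicate 2, so no direction is given.

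Igha had a positive fitted difference on the log2 scale while its mean level ran the other way. Its result depended on which B6.Sle1b libraries were included. Its scaled counts were 241, 285 and 242 in Sle1b.IFNγR-/-, against 762, 75.6 and 115 in B6.Sle1b. B6.Sle1b replicate 1 was the highest library of all and B6.Sle1b replicates 2 and 3 were the lowest. The means were 256 ± 25.3 and 318 ± 385 (SD, n = 3 each). The log2 difference over all libraries was 0.44 (SE 0.62, limma adjusted p = 0.99976). Without B6.Sle1b replicate 1 it was 1.44 (SE 0.24, limma adjusted p = 0.0153), and Igha was then among 5 loci that passed, 0.026% of those tested. Without B6.Sle1b replicate 2 it was -0.22, and without B6.Sle1b replicate 3 it was 0.085 (limma adjusted p = 0.931 and 0.995). With the level of ribosomal protein genes as a covariate it was 1.52 (SE 0.22, limma adjusted p = 0.00092), among 20 loci that passed (0.104%). That covariate is set mainly by B6.Sle1b replicate 1, so the fits in which Igha passed rest on how this library is treated.

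Ighe had the lowest level per length in every Sle1b.IFNγR-/- library, and its locus value was the steadiest of the set. Its scaled counts were 96.2, 103 and 93.4 in Sle1b.IFNγR-/- and 106, 127 and 136 in B6.Sle1b, so that the groups did not overlap. A lower level without overlap was found for 5.19% of all tested loci. The means were 97.7 ± 5.14 and 123 ± 15.4 (SD, n = 3 each), and the log2 difference of -0.32 (SE 0.26) did not pass (limma adjusted p = 0.99976). It was -0.43 without B6.Sle1b replicate 1. The value rests on 78 to 110 fragments in Sle1b.IFNγR-/- and 104 to 155 in B6.Sle1b, and the exact Poisson intervals of single libraries overlapped between the groups (79.1 to 116 scaled counts in Sle1b.IFNγR-/- replicate 1 against 86.6 to 128 in B6.Sle1b replicate 1). Such intervals cover counting error only. The highest library was 1.45 times the lowest for Ighe, against 5.83 for Ighm, 4.78 for Ighd and 10.1 for Igha. Over the 19038 tested loci above 0 in every library, the median of this quotient was 2.68, and 3.97% of loci had a smaller one than Ighe. Of the 3 transcripts that make up the Ighe locus in the deposited table, 2 were assembled from the reads and carry no annotation, against 2 of 4 for Ighd, 1 of 3 for Ighm and 0 of 2 for Igha. The locus value is therefore not limited to annotated Ighe exons, and neither the share those transcripts hold nor whether the value measures Ighe mRNA was tested.

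Levels of different genes were compared per kilobase of annotated exon, with 1886 bases for Ighm, 1900 for Ighd, 2668 for Igha and 1585 for Ighe. Except for Igha, the locus values also include assembled transcripts that these lengths leave out, so the levels per kilobase are approximate. Ighm stood first in all 6 libraries, at 597 ± 66.5 scaled counts per kilobase in Sle1b.IFNγR-/- and 1642 ± 1296 in B6.Sle1b. In Sle1b.IFNγR-/- it was followed by Ighd at 97.3 ± 7.48 and Igha at 96.0 ± 9.48, which differed by less than their spread, and by Ighe at 61.6 ± 3.24 (SD, n = 3 each). The order below Ighm was not fixed in B6.Sle1b. Igha came second in B6.Sle1b replicate 1, at 286 scaled counts per kilobase, and last in replicate 2, at 28.3, and replicate 3, at 43.2.

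Within each library, more IgD transcript was counted per IgM transcript in Sle1b.IFNγR-/- than in B6.Sle1b. Per 100 Ighm fragments there were 15.1, 19.5 and 15.2 Ighd fragments in Sle1b.IFNγR-/-, against 7.66, 7.92 and 11.3 in B6.Sle1b. The groups did not overlap, and B6.Sle1b replicates 1 and 2, which were farthest apart in level, had nearly the same ratio. The ratio was 1.87 times higher in Sle1b.IFNγR-/- (log2 difference 0.90, SE 0.22), higher in 3 of 3 libraries than in any B6.Sle1b library, and the two-sided exact permutation p was 0.1. That is the smallest p that 3 against 3 libraries allow, so none of the 10 ratios tested here could pass a threshold of 0.05, before or after adjustment. By exact binomial intervals, which cover counting error only, the nearest libraries met at their ends, at 12.77 to 17.96 in Sle1b.IFNγR-/- replicate 3 and 9.90 to 12.78 in B6.Sle1b replicate 3. The log2 difference was 0.80 without B6.Sle1b replicate 1.

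The ratio of IgA to IgM transcript was also higher in Sle1b.IFNγR-/-. There were 21.5, 28.4 and 19.3 Igha fragments per 100 Ighm fragments in Sle1b.IFNγR-/-, against 13.0, 6.39 and 5.11 in B6.Sle1b. B6.Sle1b replicate 1 was the nearest to the Sle1b.IFNγR-/- libraries, and its exact binomial interval of 12.1 to 14.1 did not reach the lowest of theirs, 16.5 to 22.5 in replicate 3. The ratio was 3.03 times higher in Sle1b.IFNγR-/- (log2 difference 1.60, SE 0.44, two-sided exact permutation p = 0.1). It was higher by 1.99 on the log2 scale without B6.Sle1b replicate 1 and by 1.32 without B6.Sle1b replicate 3. These 2 ratios have to be read against Ighm itself: 29.7% of all tested loci had a higher ratio to Ighm in every Sle1b.IFNγR-/- library than in any B6.Sle1b library, and 0.0572% had a lower one. A higher ratio of Ighd or Igha to Ighm is thus common to many loci in these libraries.

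The ratio of the Ighe locus to Ighm overlapped between the groups. It was 8.59, 10.3 and 7.45 Ighe fragments per 100 Ighm fragments in Sle1b.IFNγR-/- and 1.81, 10.8 and 6.03 in B6.Sle1b (log2 difference 0.83, two-sided exact permutation p = 0.5), with a log2 difference of 0.11 without B6.Sle1b replicate 1 and of 1.40 without B6.Sle1b replicate 2. The low value of B6.Sle1b replicate 1 came with its high Ighm count, as Ighe there was at the level of the other libraries.

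**Figure D2:**
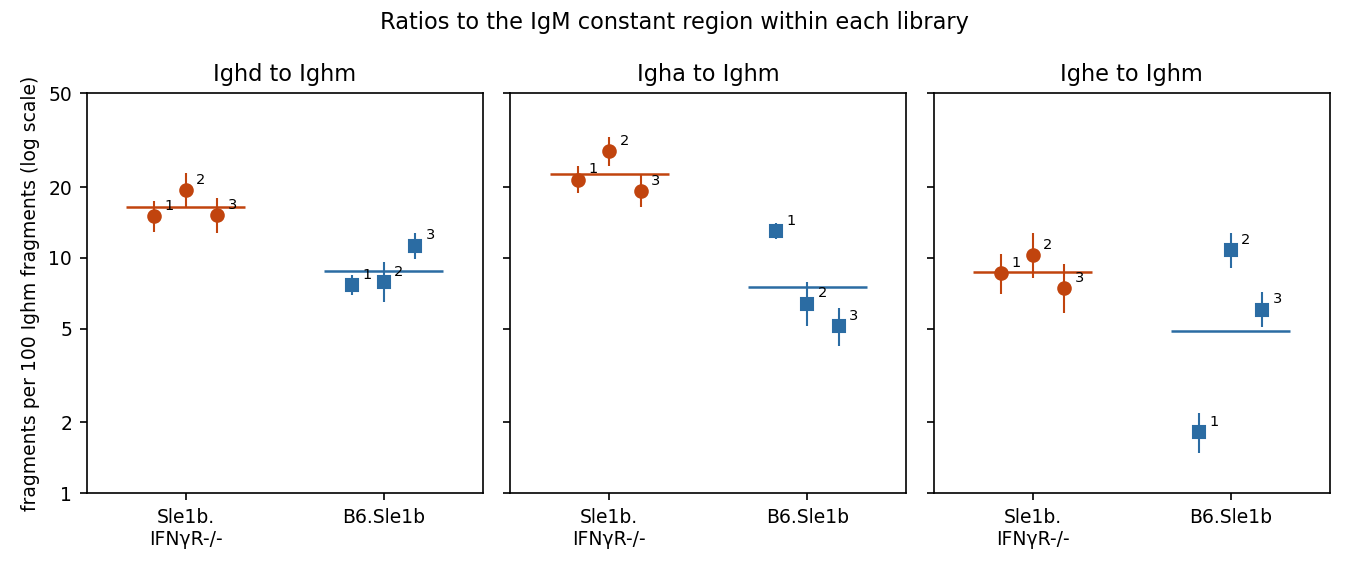
Ighd, Igha and Ighe fragments per 100 Ighm fragments (log axis) in each library, with Sle1b.IFNγR-/- at the left of each panel; digits are replicate numbers, vertical lines are exact binomial 95% intervals for counting error and horizontal lines are geometric means of 3 libraries. Ighd and Igha do not overlap between the groups, at 15.1 to 19.5 against 7.66 to 11.3 and at 19.3 to 28.4 against 5.11 to 13.0, while Ighe does.

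Among themselves, Igha, Ighd and Ighe kept nearly fixed proportions in Sle1b.IFNγR-/-, while those in B6.Sle1b varied more. Per 100 Ighd fragments, 143, 146 and 127 Igha fragments were counted in Sle1b.IFNγR-/- and 170, 80.7 and 45.4 in B6.Sle1b (two-sided exact permutation p = 0.4). The ratio of Igha to Ighe was 2.51, 2.76 and 2.59 in Sle1b.IFNγR-/- and 7.19, 0.594 and 0.848 in B6.Sle1b (p = 0.4, same exact test). The highest library was thus 1.10 times the lowest in Sle1b.IFNγR-/- and 12.1 times in B6.Sle1b, or 1.43 times there without replicate 1. The ratio of Ighe to Ighd was 0.570, 0.529 and 0.491 in Sle1b.IFNγR-/- and 0.236, 1.36 and 0.535 in B6.Sle1b (p = 0.8, same exact test). In Sle1b.IFNγR-/- the highest library was 1.15 times the lowest for Igha to Ighd and 1.16 times for Ighe to Ighd. In B6.Sle1b without replicate 1 these quotients were 1.78 and 2.54. All 3 ratios overlapped between the groups. Without B6.Sle1b replicate 1 the log2 difference was 1.19 for Igha to Ighd and 1.88 for Igha to Ighe, against 0.70 and 0.77 with it. The difference of Igha to Ighd was 0.24 without B6.Sle1b replicate 3. That of Igha to Ighe was 0.084 without B6.Sle1b replicate 2 and 0.34 without replicate 3. As a share of the 4 genes together, Ighm made up 68.9%, 63.2% and 70.5% in Sle1b.IFNγR-/- and 81.6%, 80.0% and 81.7% in B6.Sle1b. That share was nearly constant in B6.Sle1b, while the Ighm level itself varied 4.94-fold there. Ighm makes up most of the sum, so its share moves little with its level. In B6.Sle1b replicates 1 to 3 the share of Igha was 10.6%, 5.11% and 4.18%, and that of Ighe 1.48%, 8.61% and 4.93%.

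Levels were next set against genes of B cells: Cd79a and Cd79b, the signal chains of the B cell receptor, and Ms4a1, which encodes CD20. Ighm was lower relative to their geometric mean in Sle1b.IFNγR-/-. This is not a level per B cell, because the Ighm value also holds the secreted form that plasma cells make. The part of plasma cells in it was not tested. The ratio was 36.3, 41.2 and 29.1 in Sle1b.IFNγR-/-, against 54.6, 52.1 and 55.1 in B6.Sle1b. The B6.Sle1b libraries agreed within 1.06-fold here, replicate 1 included, and the groups did not overlap. The log2 difference was -0.62 (SE 0.15, two-sided exact permutation p = 0.1), and it lay between -0.73 and -0.48 when single libraries were left out. A lower ratio to these genes without overlap was found for 0.359% of all tested loci. Cd79a rests on few fragments (18, 6 and 25 in Sle1b.IFNγR-/- and 80, 21 and 27 in B6.Sle1b), and without it the Ighm difference was -0.93, still without overlap. Both sets of B cell genes were chosen after the data were seen.

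The other 3 genes overlapped between the groups on this scale. The ratio of Ighd to the B cell genes was 5.46, 8.02 and 4.41 in Sle1b.IFNγR-/- and 4.18, 4.12 and 6.21 in B6.Sle1b (two-sided exact permutation p = 0.5). That of Igha was 7.81, 11.7 and 5.61 in Sle1b.IFNγR-/- and 7.11, 3.33 and 2.82 in B6.Sle1b (p = 0.2, same exact test). Only B6.Sle1b replicate 1 reached the Sle1b.IFNγR-/- range for Igha. That of Ighe was 3.11, 4.24 and 2.17 in Sle1b.IFNγR-/- and 0.989, 5.60 and 3.32 in B6.Sle1b (p = 0.9, same exact test). When Igkc, the constant region of the κ light chain, took the place of the B cell genes, the direction for Ighm turned. The Ighm to Igkc ratio was 2.64, 2.81 and 2.72 in Sle1b.IFNγR-/- and 0.631, 1.75 and 2.06 in B6.Sle1b, a log2 difference of 1.05. A higher ratio to Igkc without overlap was found for 64.8% of all tested loci, since Igkc itself was at 424, 357 and 461 scaled counts in Sle1b.IFNγR-/- and 9267, 677 and 1097 in B6.Sle1b. The difference of Igkc between the groups was thus larger than that of Ighm, and that of the B cell genes smaller.

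**Figure D3:**
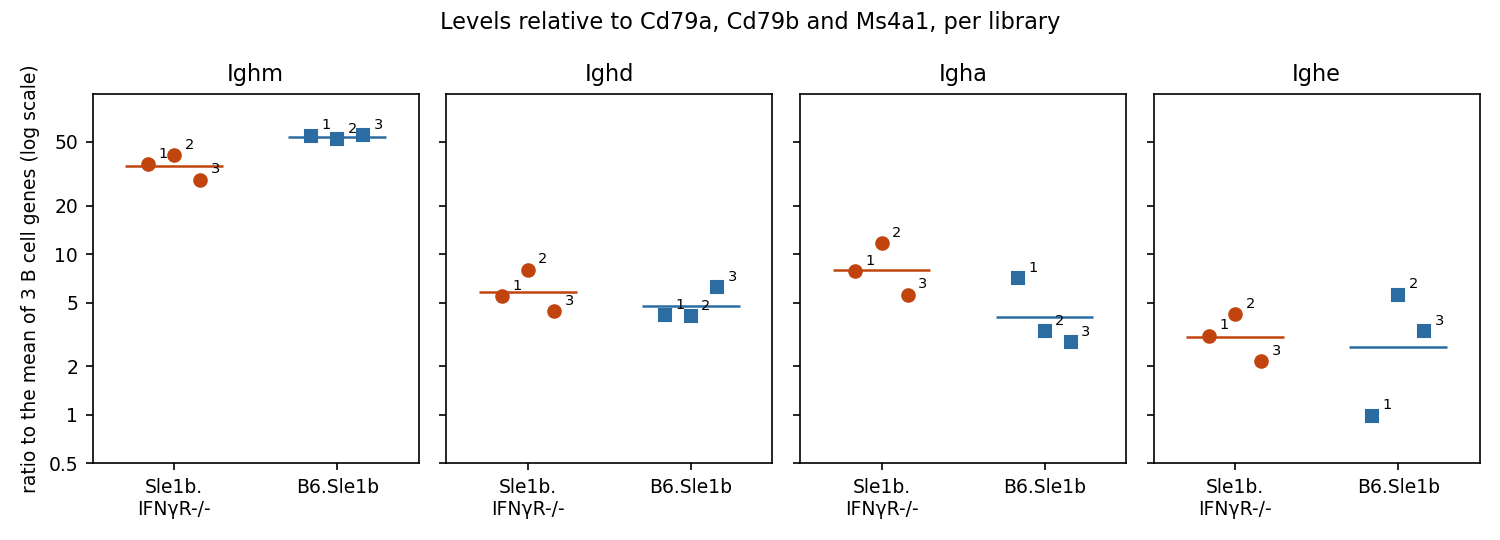
Ratio (log axis) of Ighm, Ighd, Igha and Ighe to the geometric mean of Cd79a, Cd79b and Ms4a1 in each library, with Sle1b.IFNγR-/- at the left of each panel; digits are replicate numbers and lines are geometric means of 3 libraries. Ighm separates the groups, at 29.1 to 41.2 against 52.1 to 55.1, and the other 3 genes overlap.

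The loci with the most similar pattern were found by the root mean square difference of log2 profiles over the 6 libraries, each centred on its own mean, among 13041 loci. Differences between libraries were shared by many loci, so likeness of profile is a description. For Ighd they included Serpinb6b, a serine protease inhibitor gene (0.068), and Csf1r, the receptor gene of macrophage growth factor (0.086). Csf1r had 75.2, 97.8 and 89.8 scaled counts in Sle1b.IFNγR-/- and 238, 45.2 and 114 in B6.Sle1b, the same order of libraries as Ighd. For Ighm they were the ribosomal protein gene Rps24 (0.12), BC005537 (0.13) and the MHC class I gene H2-K1 (0.16). For Igha they were the transcription factor gene Klf9 (0.13), Rtn3, a gene of the endoplasmic reticulum (0.20), and Tram1, a gene of the machinery that moves new proteins into that compartment (0.24). For Ighe they were Clrn1 (0.047), Abca13 (0.066) and Suclg1 (0.068). Clrn1 encodes a membrane protein of sensory hair cells, Abca13 an ABC transporter and Suclg1 a subunit of a citric acid cycle enzyme. Clrn1 had 57.7, 61.8 and 52.7 scaled counts in Sle1b.IFNγR-/- and 64.2, 71.5 and 76.9 in B6.Sle1b. Whether such values, or those of the Ighe locus, stand above background was not tested. Compared on the same measure with the joining chain gene Igj, Ighm was nearest (0.32) and Ighe farthest (1.08), with Ighd at 0.68 and Igha at 0.93.

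Genes that act with these constant regions gave no call in the fit of all libraries. In that fit 11168 of all 19227 tested loci had negative differences, which is the background for the counts below. Without B6.Sle1b replicate 1 that number was 9301. Among genes for secretion, polymer assembly and uptake of IgM and IgA, 7 of 10 were tested, 6 had negative differences and 0 passed, with a median log2 difference of -0.81 against -0.083 over all tested loci. Igj, the joining chain of polymeric IgM and IgA, had 44.6, 52.8 and 40.7 scaled counts in Sle1b.IFNγR-/- and 377, 53.4 and 86.2 in B6.Sle1b (log2 difference -1.38, SE 0.54). Pigr, the epithelial receptor that carries polymeric IgA and IgM across mucosa, had 33.2, 60.7 and 32.3 in Sle1b.IFNγR-/- and 75.4, 70.7 and 76.9 in B6.Sle1b (log2 difference -0.87, SE 0.33). Neither gene overlapped between the groups, and a lower level without overlap held for 5.19% of loci. Leaving out B6.Sle1b replicate 1, the difference was -0.56 for Igj and -0.86 for Pigr. The median of this list was -0.40 without B6.Sle1b replicate 1.

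For IgA switching and homing, all 11 tested genes of 14 had negative differences, against 11168 of all 19227 loci, and 0 passed. The median was -0.31, or -0.044 without B6.Sle1b replicate 1. The smallest p values belonged to Ccr9, a gut-homing chemokine receptor gene at a locus shared with Gm17200 (log2 difference -0.59), and Smad3, a mediator of transforming growth factor-β signals (-0.45). For IgE switching and receptors, 6 of 10 genes were tested, 4 had negative differences and 0 passed, with a median of -0.071, or 0.25 without B6.Sle1b replicate 1. Ms4a2, the β chain of the high-affinity IgE receptor of mast cells and basophils, had a difference of 0.52, and Stat6, the transcription factor of interleukin-4 signals, -0.49. Il4 was listed at 0 in every library. For splicing between IgM and IgD and the DNA steps of switching, 6 of 7 genes were tested, 4 had negative differences and 0 passed, with a median of -0.090, or 0.16 without B6.Sle1b replicate 1. Ung, which removes uracil from DNA, had 21.0, 46.1 and 19.2 scaled counts in Sle1b.IFNγR-/- and 19.4, 19.7 and 19.7 in B6.Sle1b, a log2 difference of 0.42. For B cell receptor partners, 8 of 10 tested genes had negative differences and 0 passed (median -0.26, or 0.17 without B6.Sle1b replicate 1), with Cd79a at -1.10 and Blnk, an adaptor of the receptor, at -0.50.

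Among the other immunoglobulin constant regions, all 7 tested genes of 8 had negative differences, against 11168 of all 19227 loci, and 0 passed. The median was -1.63. Ighg1, Iglc3 and Iglc1 lay above Ighm, whose difference was -1.16, and the other 4 below it. The differences were -2.61 for Ighg2c, -2.36 for Ighg3, -2.21 for Igkc, -1.63 for Ighg2b, -0.83 for Ighg1, -0.93 for Iglc3 and -0.42 for Iglc1. Iglc2 was below the mean of 10 needed for the test. Without B6.Sle1b replicate 1 the median was -0.59, and Ighg2c (-1.45) and Ighg3 (-1.35) fell, with a limma adjusted p of 0.0109 each, in the same fit in which Igha rose. With the ribosomal covariate Ighg2c (-1.36), Ighg3 (-1.29) and Igkc (-0.97) fell, with limma adjusted p values of 0.00092, 0.0057 and 0.018. Whether Igha differed from these genes in its response was not tested.

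Marker lists of the cells a spleen holds gave 0 calls in the fit of all libraries among follicular B cells (9 tested of 10, median -0.28, with Cr2 at 0.87 and Cd72 at -0.53), marginal zone and B-1 cells (8 of 9, median 0.23, with Cd1d1 at 0.73 and Cd5 at -0.35) and T cells (8 of 10, median -0.185, with Cd2 at -0.997 and Cd4 at -0.56). There were also 0 calls among erythroid cells (10 of 10, median 0.17, with Epor at 0.56 and Gata1 at -0.37), red pulp macrophages (10 of 10, median 0.018, with Spic at 0.82 and C1qa at -0.48) and neutrophils (6 of 10, median -0.55, with Ngp at -0.66 and Cxcr2 at -0.44). The ribosomal protein genes had a median of -0.57, with 0 of 28 called and Rps14 at -2.07. Without B6.Sle1b replicate 1 the medians were 0.18 for follicular B cells, 0.34 for marginal zone and B-1 cells, 0.014 for T cells and 0.84 for erythroid cells. They were then 0.42 for red pulp macrophages, -0.027 for neutrophils and 0.060 for ribosomal protein genes. With the ribosomal covariate the erythroid anion exchanger gene Slc4a1 rose (1.35, limma adjusted p = 0.0080), named here after its value was seen. Summed marker levels moved with B6.Sle1b replicate 1 as Ighm, Ighd and Igha did. Follicular markers summed to between 768 and 804 scaled counts in Sle1b.IFNγR-/- and to 1339, 501 and 764 in B6.Sle1b replicates 1 to 3. Erythroid markers summed to between 511 and 668 in Sle1b.IFNγR-/- and to 1443, 235 and 446 in B6.Sle1b. The part of these differences in the results for the constant regions was not tested. Whether each marker, Cr2 and Cd72 included, is made only by the cells of its list was also not tested.

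**Figure D4:**
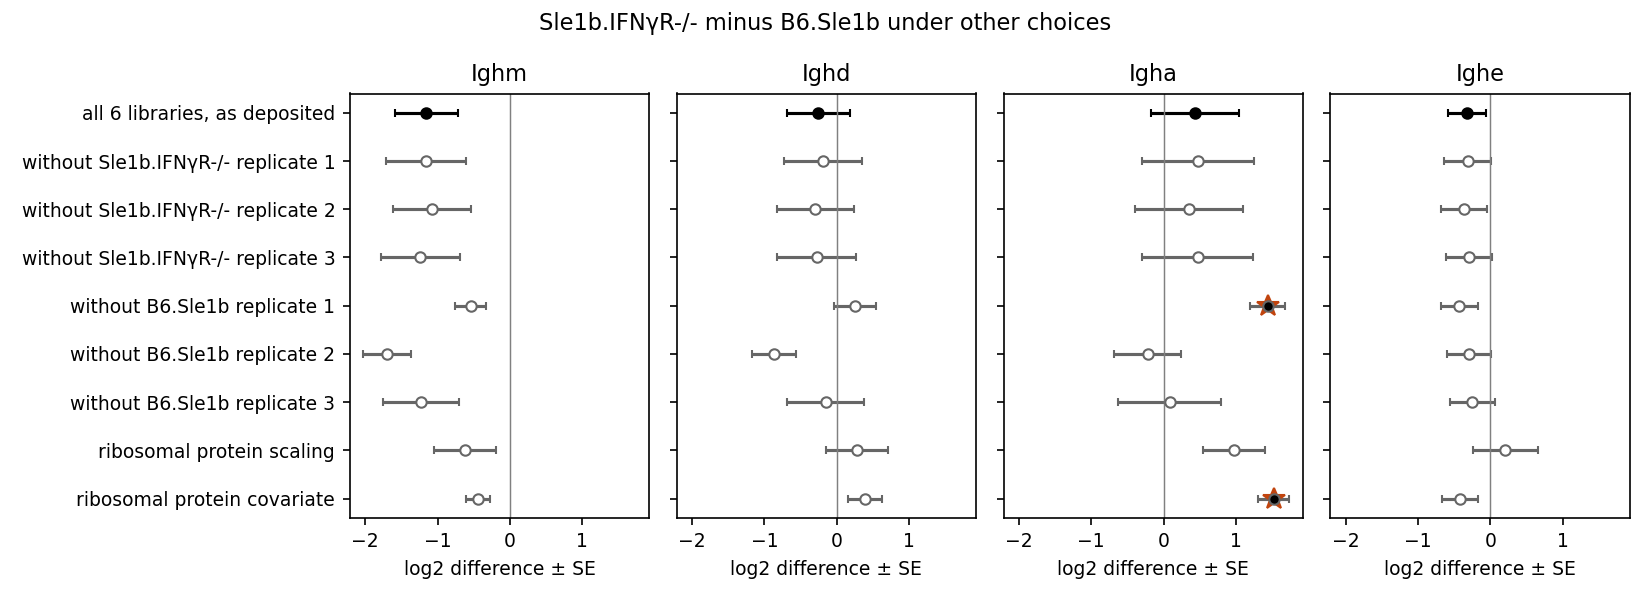
Log2 difference ± SE (limma, Sle1b.IFNγR-/- minus B6.Sle1b) of the 4 genes with all libraries, without each library in turn and with 2 uses of the ribosomal protein level; stars mark an adjusted p under 0.05. Ighm is negative in every row, Ighe in every row but the ribosomal scaling, and Igha ranges from -0.22 without B6.Sle1b replicate 2 to 1.52 with the covariate.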

How the data were processed

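Spleen RNA was made into libraries with the NuGEN Ovation V2 kit, per the labels' protocols, and processed with CASAVA, TopHat2 2.0.9 and Cufflinks 2.2.1 on GRCm38, per the submitters' processing notes. The annotation release, strand setting and treatment of multiply mapped reads are not given in sources used here. Overlapping genes are therefore not separated, and reads of similar constant regions may have been assigned to one or another of them. The deposited values (signal) are counts per locus, per the file headers, and quartile scaling by the authors is stated in the table's name only. Its 1530481 rows were collapsed to 426574 loci, and 24 further columns of per-sample values were not used. Values above 0 came in steps of 0.822 to 1.20 per library. Dividing by the step gave fragments, which for the 4 genes were whole to within 0.0036. Over all values above 0 they were whole to within 0.01 for 99.8% in each library. A value of 3 fragments, the floor, corresponds to between 2.47 and 3.59 scaled counts. Because other values were not whole, the planned count tests were not run.

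Loci with a gene name and a mean value of 10 or more entered a limma fit (version 3.58.1, R 4.3.3) of log2(value + 1) (intensity trend, genotype as the only term, Benjamini-Hochberg adjustment over all 19227 loci, threshold 0.05). On this scale the fold changes of low genes come out too small. Ratios used the values as deposited and two-sided exact permutation tests (python 3.11.15, scipy 1.17.1, pandas 2.3.3, numpy 2.4.6, matplotlib 3.10.9). Whether the libraries come from separate mice is not in the labels. The p-values thus reflect the spread between these samples, which may be technical. A gene in several loci was taken at the locus of highest mean. The genes named are the 4 members, the 2 of smallest p in each list, the other constant regions, the B cell genes, Igj and the 3 loci of most similar profile per member, skipping predicted genes, clones, pseudogenes, small RNAs and receptor segments. Some of the genes this rule names are not reported here, and the ratio to B cell genes was for that reason taken over 3 genes instead of the set planned. Members, lists and tests were chosen with earlier results of these data known.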

Additional observations from a re-analysis of the deposited data

How the results depend on the processing

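The number of loci past an adjusted p of 0.05 was 0 with all libraries and under 7 of the other settings, and 1 with scaling to the total of named loci, 5 with scaling to ribosomal protein genes and 20 with the ribosomal covariate. Leaving out 1 library at a time gave 0 to 5. The median of all loci was -0.083 with the deposited scaling, 0.035 and 0.059 with upper-quartile and total scaling and 0.44 with ribosomal scaling. Under it the difference became 0.28 for Ighd and 0.21 for Ighe, both below that median. Ighd was 0.40 with the ribosomal covariate and, with each library omitted in turn, between -0.87 and 0.26, and Igha between -0.22 and 1.44. Igha was 1.52 with the covariate (adjusted p = 0.00092). In the same omissions the ratio of Ighe to Ighd ranged from -0.69 to 0.57 on the log2 scale, and that of Ighe to the B cell genes from -0.50 to 0.75. Without Cd79a, a choice made after the data were seen, the ratios to the B cell genes became -0.028 for Ighd and -0.10 for Ighe, and with Igkc instead that of Ighm became 1.05. The cause of these changes was not tested. Median-ratio and upper-quartile scaling, both filters and both pseudocounts changed no direction and no call of the 4 genes. The labels do not say whether replicate numbers pair the samples. Same-numbered samples correlated at 0.012, -0.027 and -0.011 in their deviations from the group means, which with 3 samples per group cannot decide it. With a replicate block 0 loci passed and Ighm was at -1.16 (SE 0.37), and the paired exact sign-flip test of ratios could not go below 0.25. Tests of whole counts were not run. The smallest number of fragments behind a member value was 78, for Ighe in Sle1b.IFNγR-/- replicate 3.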
